A study of Mus musculus with 12 samples.

Results

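Transcripts of 10 inflammatory cytokine, chemokine, and inhibitor genes were followed through myeloid differentiation of wild-type and HMGN1-OE cells. The rule for the genes is a list of names and holds no measured value, although the list was drawn up with earlier results of these data known. It comprised the cytokines Il1b and Tnf, the chemokines Cxcl2, Ccl3, Ccl4, and Ccl6, the interleukin 1 antagonists Il1rn and Il1r2, and the NF-kB inhibitors Nfkbia and Tnfaip3. They are 10 of the 23309 genes in the expression table. All 10 passed the filter on low values (at least 1 FPKM in at least 2 libraries), as did 11516 genes in total. FPKM counts sequenced fragments relative to transcript length and library size, and was here scaled by the study to synthetic spike-in RNAs.

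The cells were CD117+ bone marrow progenitors of C57BL/6 background, immortalized with a retrovirus that expresses HoxB8 fused to the estrogen receptor. Estradiol (E2) holds such cells as immature progenitors, and they mature into CD11b+ GR-1+ myeloid cells once it is withdrawn in the presence of interleukin 3. HMGN1-OE cells came from mice that carry human HMGN1, a nucleosome-binding protein, as a transgene, and wild-type cells from littermates. Both genotypes therefore carried the ER-HoxB8 retrovirus and grew in interleukin 3. RNA was sequenced at 0, 36, and 96 h after E2 withdrawal from 2 libraries per group, which gave 6 groups and 12 libraries. The sources used here do not give the age or sex of the donor mice or the number of founder cultures. The p-values therefore concern these libraries only. They use a spread between libraries that genes of similar level share, and a gene's own spread did not enter them.

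Interleukin 1 beta and TNF are cytokines that switch on inflammation, and CXCL2, CCL3, CCL4, and CCL6 are chemokines that draw leukocytes to a site. Both cytokines act through receptors that release the transcription factor NF-kB from its inhibitor IkB-alpha, the product of Nfkbia. NF-kB then induces Nfkbia and Tnfaip3, which encodes the ubiquitin-editing protein A20, and these 2 products restrain it again. IL1RN occupies the interleukin 1 receptor without signalling, and IL1R2 is a decoy that binds interleukin 1 and does not signal. Mature neutrophils carry both antagonists.

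Promoter sequences (250 bases before to 50 bases after the start site, 300 bases) were read from the RefSeq table of mouse build GRCm38.p6, which held 12 promoters of 9 of the 10 genes. Ccl4 had no entry. The 10-letter NF-kB consensus (kB), searched on both strands, was found in 1 promoter each of Cxcl2, Nfkbia, and Tnfaip3, 3 of these 12 promoters, and in 4.51% of all 32851 promoters of the same length. These 3 promoters are shown because the 3 genes include both NF-kB inhibitors and all 3 rose late in differentiation. The promoters of Il1b, Tnf, Ccl6, and Il1r2, which also rose from 0 to 96 h, held no kB match. They lie at chr5:90903649-90903948 on the plus strand (Cxcl2), chr12:55492598-55492897 on the minus strand (Nfkbia), and chr10:19015361-19015660 on the minus strand (Tnfaip3). Each is written 5′ to 3′ on the strand of its gene, and capitals mark letters that match the kB consensus on either strand.
Cxcl2: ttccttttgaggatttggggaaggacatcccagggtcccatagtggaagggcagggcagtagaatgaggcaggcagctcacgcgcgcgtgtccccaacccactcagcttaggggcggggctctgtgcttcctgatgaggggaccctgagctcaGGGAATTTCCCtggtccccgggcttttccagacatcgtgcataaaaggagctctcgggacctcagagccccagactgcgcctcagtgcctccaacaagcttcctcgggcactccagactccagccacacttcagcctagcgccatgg
Nfkbia: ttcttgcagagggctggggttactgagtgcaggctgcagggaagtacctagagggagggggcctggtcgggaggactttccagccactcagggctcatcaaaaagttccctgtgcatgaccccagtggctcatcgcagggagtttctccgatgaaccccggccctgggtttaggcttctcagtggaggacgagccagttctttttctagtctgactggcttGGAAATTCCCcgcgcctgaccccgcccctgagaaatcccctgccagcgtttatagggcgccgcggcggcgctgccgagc
Tnfaip3: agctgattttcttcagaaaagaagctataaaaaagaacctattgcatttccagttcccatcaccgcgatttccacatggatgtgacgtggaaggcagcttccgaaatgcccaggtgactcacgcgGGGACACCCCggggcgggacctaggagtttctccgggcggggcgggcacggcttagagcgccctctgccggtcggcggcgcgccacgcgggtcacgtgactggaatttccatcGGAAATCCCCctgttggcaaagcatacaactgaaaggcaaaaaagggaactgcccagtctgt

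In Cxcl2 the matches on the plus and minus strands overlapped and began 97 and 96 bases before the start site. The single match in Nfkbia began 29 bases before the start site, and those in Tnfaip3 began 125 and 12 bases before it. The AP-1 letters TGANTCA were found in promoters of Il1rn and Tnfaip3 (2 of 12 promoters, against 7.81% of all). The C/EBP letters TTNCNNAA were present in promoters of 6 of the 9 genes, in 8 of 12 promoters against 40.7% of all, although 2 of the Il1rn promoters overlap and hold the same matches. TATAAA was found in 5 of 12, against 13.6%. It began 31 and 29 bases before the start site in Il1b and Tnf, and 225 bases before it in Tnfaip3. In Nfkbia and Il1rn it lay on the strand opposite to the gene, 19 and 14 bases after the start site. The CRE letters TGACGTCA and the PU.1 letters GAGGAAGT were in 0 of the 12, against 1.79% and 3.20% of all promoters. All motifs were read on both strands. A match is a string of letters and not evidence of binding, and its absence concerns only these 300 bases.

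The depth of the libraries is unknown, because the values hold no read counts. The sum of FPKM ran from 228955 to 1442570 across the 12 libraries, and the replicate libraries of a group correlated over the tested genes with r from 0.951 to 0.980. Undetected genes sat near 0.1 FPKM. The 12 neutrophil granule markers summed to between 6065 and 23390 FPKM at 0 and 36 h and to between 66900 and 175000 FPKM at 96 h. S100a8 and S100a9 made up most of the sum at 96 h, and S100a9 was listed at 0.0511 FPKM in the first wild-type library there beside 69950 FPKM of S100a8. Ctsg, an early granule marker, went the other way, from 3711 to 7413 FPKM at 0 h to between 20.6 and 478.5 FPKM at 96 h. Of the monocyte or macrophage markers, C1qa and Cx3cr1 did not exceed 0.328 FPKM in any library, Cd14 and Cd68 lay between 8.36 and 69.6 FPKM, and Csf1r went from between 0.324 and 1.13 FPKM at 0 h to between 7.17 and 13.5 FPKM at 96 h. Emr1, the gene of the macrophage antigen F4/80, was lower late, at 37.7 to 119.3 FPKM at 0 h and 9.44 to 18.7 FPKM at 96 h. Murine Hmgn1 was not separated by genotype at any time (97.6 and 200.6 FPKM in HMGN1-OE cells and 85.7 and 140.8 FPKM in wild-type cells at 0 h), and the human transgene itself was not measured here. Libraries are called first and second by their column order, which pairs nothing.

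Wild-type libraries at 0 and 36 h stood apart from each other in several of the 10 genes. At 36 h the first library exceeded the second by 18.7-fold for Ccl6 and by 6.15-fold for Il1b, on unlogged FPKM, and the monocyte marker Ly6c2 was at 2179 and 274.7 FPKM, whereas Emr1 was at 59.6 and 102.3 FPKM. These 2 libraries also stood apart in the summed eosinophil markers (65.5 and 8.97 FPKM), the mast cell or basophil marker Cpa3 (2013 and 553.9 FPKM), and the progenitor and dendritic cell marker Flt3 (4.10 and 67.0 FPKM). At 0 h the second library exceeded the first by 3.07-fold for Ccl3, 3.45-fold for Ccl4, 3.07-fold for Il1rn, and 3.01-fold for Tnf, with Ly6c2 at 845.5 and 92.3 FPKM. The median tested gene was itself higher in the second library at 0 h, by 0.85 on the log2(FPKM + 1) scale, and at 36 h it was higher in the second library by 0.26. At 96 h the median gene was lower in the second wild-type library, by 0.89, the largest such shift in any group. Between these 2 libraries Tnf and Il1r2 differed by -1.02, Tnfaip3 by -0.77, and Nfkbia by -1.55, and 3 of the 10 genes were higher in the second. The summed level of the 13 listed monocyte or macrophage markers was 172.8 and 1020 FPKM in the wild-type libraries at 0 h and 458.9 to 2383 FPKM at 36 h, against 72.9 to 235.1 FPKM in HMGN1-OE libraries at the same times. At 96 h it was 425.9 to 766.8 FPKM in wild-type libraries and 787.2 to 1363 FPKM in HMGN1-OE libraries. Ly6c2 made up 845.5 FPKM of the sum in the second wild-type library at 0 h and 2179 FPKM of the highest sum at 36 h. Without Ly6c2, a step chosen after the values were seen, they were 80.5 and 174.6 FPKM in wild-type libraries and 167.8 and 64.4 FPKM in HMGN1-OE libraries at 0 h, 184.3 to 204.3 and 76.7 to 107.4 FPKM at 36 h, and 105.0 to 119.4 and 84.9 to 106.0 FPKM at 96 h. The part of these cells in the results was not tested. In bulk RNA, fewer cells of a type and less RNA per cell cannot be told apart.

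The first question was how the 10 genes changed as cells matured. From 0 to 96 h, 7 of the 10 genes rose in wild-type cells and the same 7 rose in HMGN1-OE cells: Il1b, Tnf, Cxcl2, Ccl6, Il1r2, Nfkbia, and Tnfaip3. Ccl3, Ccl4, and Il1rn passed the test in neither direction. A rise was called for 4.31% of all tested genes in wild-type cells and 5.08% in HMGN1-OE cells, and a fall for 77.2% and 62.4%. The median tested gene had a log2 fold change of -1.75 in wild-type cells, against -1.28 with HMGN1-OE, on the log2(FPKM + 1) scale, on which all fold changes called log2 are given. Adjusted p-values are from limma with Benjamini-Hochberg adjustment over the 11516 genes. They rest on a spread shared between genes. Fits without single libraries aside, the alternative settings gave adjusted p-values up to 0.0122 for Ccl6 and 4.47e-03 for Il1r2 from 0 to 96 h in wild-type cells.

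**Figure D1:**
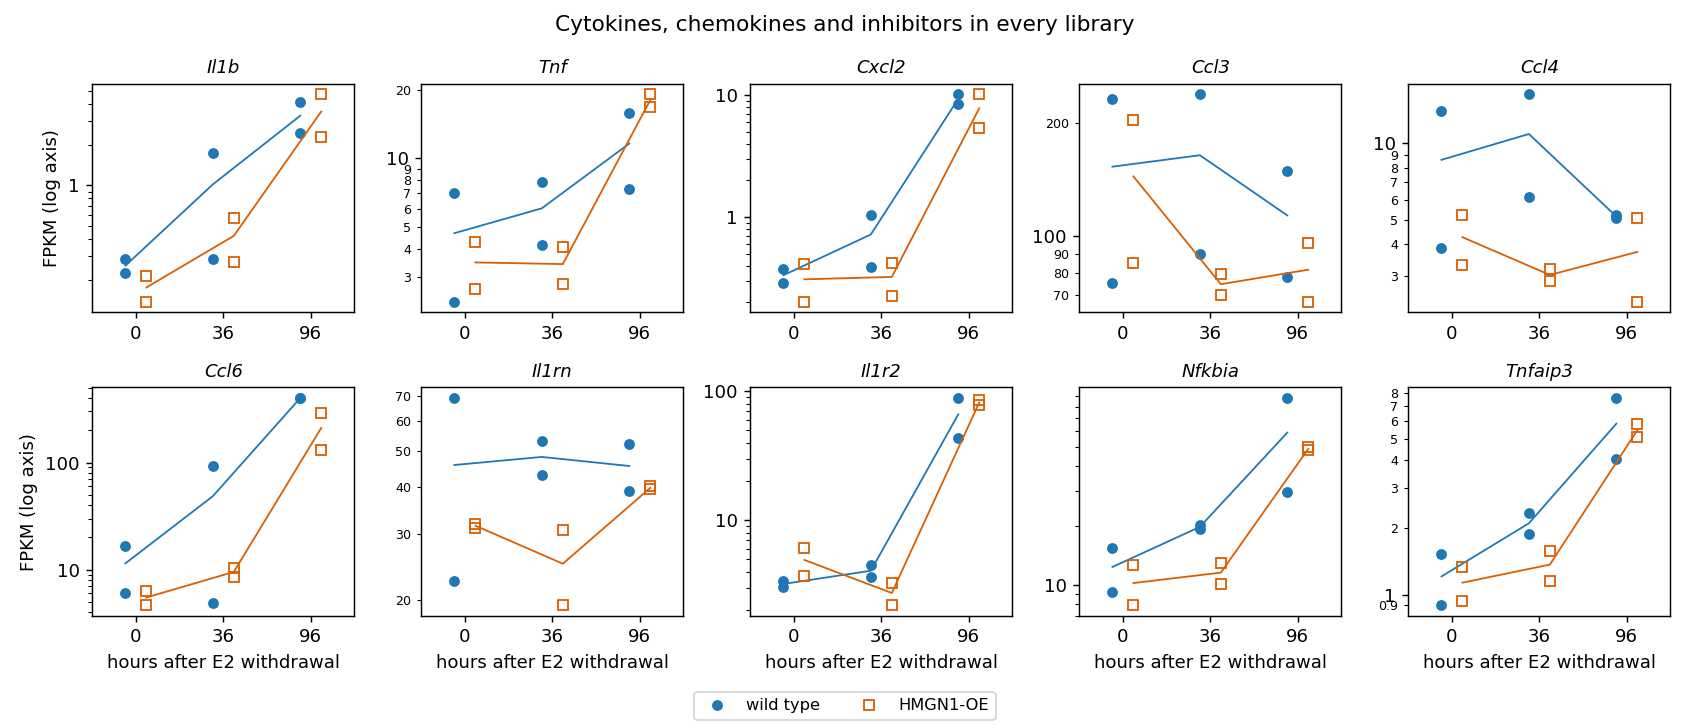
FPKM (log axis) of the 10 genes in each of the 12 libraries against hours after E2 withdrawal, with filled circles for wild-type and open squares for HMGN1-OE libraries. The 3 times are evenly spaced and lines join the means of the 2 libraries of a group. Il1b, Cxcl2, Ccl6, Il1r2, Nfkbia, and Tnfaip3 are highest at 96 h in both genotypes, while Ccl3, Ccl4, and Il1rn show no such step.

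Among the cytokines, Il1b measured 0.286 and 0.223 FPKM in wild-type libraries at 0 h, 1.75 and 0.284 FPKM at 36 h, and 4.11 and 2.44 FPKM at 96 h. HMGN1-OE libraries held 0.138 and 0.213 FPKM at 0 h, 0.575 and 0.271 FPKM at 36 h, and 2.29 and 4.74 FPKM at 96 h. Every library at 96 h was thus above every earlier one, and the level remained low in absolute terms. The log2 change from 0 to 96 h was 1.74 ± 0.34 (SE) in wild-type (adjusted p = 1.14e-06) and 1.89 ± 0.34 in HMGN1-OE cells (adjusted p = 3.12e-07). Values at 0 h lay close to the level of undetected genes, so the ratios of mean FPKM, 12.9-fold and 20.02-fold, depend on that level. The libraries do not mark strand, so reads of Il1b cannot be told apart from those of the antisense gene Il1bos.

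Tnf started higher, at 2.33 and 7.02 FPKM in wild-type libraries and 4.29 and 2.66 FPKM in HMGN1-OE libraries. At 36 h it was at 7.89 and 4.15 FPKM in wild-type libraries and 4.05 and 2.79 FPKM in HMGN1-OE libraries. At 96 h it reached 15.9 and 7.33 FPKM in wild-type libraries and 19.2 and 16.9 FPKM in HMGN1-OE libraries. The HMGN1-OE libraries at 96 h were far above all earlier ones, whereas the lower wild-type library at 96 h was close to the higher ones at 0 and 36 h. The log2 rise from 0 to 96 h was 2.11 ± 0.45 in HMGN1-OE cells (adjusted p = 2.11e-05) and 1.1996 ± 0.45 in wild-type cells (adjusted p = 0.0113). Where a library is left out, its group keeps 1 library, which is assumed to vary like the other groups. The wild-type call did not hold without the first library at 0 h (0.57, adjusted p = 0.267), without the first library at 96 h (0.69, adjusted p = 0.193), or with the gene's own variance (adjusted p = 0.0919).

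Of the chemokines, Cxcl2, a ligand of the neutrophil receptor CXCR2, was near the floor before 96 h. It measured 0.290 and 0.379 FPKM in wild-type libraries and 0.416 and 0.203 FPKM in HMGN1-OE libraries at 0 h, and 1.05, 0.393, 0.225, and 0.423 FPKM in the same order at 36 h. At 96 h it was at 8.50 and 10.2 FPKM in wild-type libraries and 5.40 and 10.2 FPKM in HMGN1-OE libraries. The 96 h libraries did not overlap with any earlier library in either genotype. The log2 rise from 0 to 96 h was 2.95 ± 0.36 in wild-type (adjusted p = 1.67e-14) and 2.70 ± 0.36 in HMGN1-OE cells (adjusted p = 3.25e-12).

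Ccl6, a CC chemokine of myeloid cells, had the largest log2 rise of the 10 genes in both genotypes. Wild-type libraries held 6.10 and 16.8 FPKM at 0 h, 92.1 and 4.92 FPKM at 36 h, and 397 and 402 FPKM at 96 h. HMGN1-OE libraries held 4.64 and 6.37 FPKM at 0 h, 10.5 and 8.61 FPKM at 36 h, and 132 and 288 FPKM at 96 h. The 36 h wild-type libraries fell on either side of the range at 0 h, while all 4 libraries at 96 h were above every earlier library. The log2 change from 0 to 96 h was 5.15 ± 0.53 in wild-type cells (adjusted p = 4.42e-20), a 34.9-fold ratio of mean FPKM. In HMGN1-OE cells it was 4.93 ± 0.53 (adjusted p = 1.97e-18), a 38.2-fold ratio. The 7 listed eosinophil markers summed to between 4.89 and 26.7 FPKM in the 4 libraries at 0 h and to between 256.4 and 2313 FPKM in the 4 at 96 h, and their part in the rise was not tested. Prg2 made up most of the sum at 96 h, at 186.2 to 1970 FPKM.

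Ccl3 and Ccl4, which encode related CC chemokines, behaved differently from the other ligands. Ccl3 was already abundant in progenitors, at 75.1 and 231 FPKM in wild-type libraries and 203 and 85.1 FPKM in HMGN1-OE libraries at 0 h. It measured 238 and 89.8 FPKM in wild-type libraries and 70.0 and 79.4 FPKM in HMGN1-OE libraries at 36 h, and 149, 78.1, 67.2, and 96.0 FPKM in the same order at 96 h. The libraries of the 3 times overlapped within wild-type cells. In HMGN1-OE cells both libraries at 36 h were below both at 0 h. The log2 change from 0 to 96 h was -0.29 ± 0.57 (adjusted p = 0.640) in wild-type cells and -0.70 ± 0.57 (adjusted p = 0.259) in HMGN1-OE cells. The HMGN1-OE value was -0.08 without the first HMGN1-OE library at 0 h and -1.33 without the second.

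Ccl4 was lower than Ccl3 in every library on the FPKM scale. It was at 3.86 and 13.3 FPKM in wild-type libraries and 5.23 and 3.30 FPKM in HMGN1-OE libraries at 0 h, 15.6, 6.13, 2.88, and 3.18 FPKM in the same order at 36 h, and 5.08, 5.21, 2.38, and 5.09 FPKM at 96 h. The 2 highest values were the same 2 wild-type libraries that had the highest Ccl3. Log2 changes from 0 to 96 h were -0.44 ± 0.44 (adjusted p = 0.342) and -0.19 ± 0.44 (adjusted p = 0.700). Without the first wild-type library at 0 h the wild-type value was -1.22 and was called (adjusted p = 0.0140), and without the second it was 0.34 and was not called. Within a library, Ccl3 FPKM exceeded Ccl4 FPKM by 14.7-fold to 38.8-fold, a ratio that was chosen after its values were seen.

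The 2 interleukin 1 antagonists took different courses. Il1rn, the receptor antagonist, was expressed from the start, at 22.5 and 69.0 FPKM in wild-type libraries and 31.2 and 32.0 FPKM in HMGN1-OE libraries at 0 h. It stood at 43.2, 53.0, 30.6, and 19.4 FPKM at 36 h and at 51.9, 39.0, 39.4, and 40.1 FPKM at 96 h, in the same order. Wild-type libraries overlapped across times, whereas both HMGN1-OE libraries at 96 h were above the 4 earlier ones. The log2 change from 0 to 96 h did not pass the test in wild-type (0.18 ± 0.54, adjusted p = 0.752) or HMGN1-OE cells (0.32 ± 0.54, adjusted p = 0.590).

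Il1r2, the decoy receptor, stayed between 2.18 and 6.13 FPKM in all 8 libraries at 0 and 36 h. The wild-type libraries were at 3.38 and 3.02 FPKM at 0 h and 4.49 and 3.63 FPKM at 36 h, and the HMGN1-OE libraries at 6.13 and 3.70 FPKM and then 3.27 and 2.18 FPKM. At 96 h it reached 89.2 and 43.6 FPKM in wild-type libraries and 79.0 and 85.4 FPKM in HMGN1-OE libraries, far above all earlier libraries. The log2 rise from 0 to 96 h was 3.92 ± 0.48 in wild-type (adjusted p = 2.71e-14) and 3.84 ± 0.48 in HMGN1-OE cells (adjusted p = 1.02e-13).

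Both NF-kB inhibitors rose. Nfkbia was at 9.28 and 15.4 FPKM in wild-type libraries at 0 h, 20.2 and 19.2 FPKM at 36 h, and 88.5 and 29.6 FPKM at 96 h. In HMGN1-OE libraries it was at 12.6 and 7.89 FPKM, 12.99 and 10.1 FPKM, and 48.0 and 49.8 FPKM at the same times. All libraries at 96 h were above all earlier ones, although the wild-type pair differed widely. The log2 rise from 0 to 96 h was 2.01 ± 0.52 in wild-type (adjusted p = 2.03e-04) and 2.18 ± 0.52 in HMGN1-OE cells (adjusted p = 1.16e-04). Fitted on the 4 wild-type libraries at these times alone, the wild-type rise had an adjusted p of 0.0634. The log2 rise was 1.23 (adjusted p = 0.0273) without the first wild-type library at 96 h and 2.78 (adjusted p = 4.02e-06) without the second.

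Tnfaip3 was expressed at a lower level. Wild-type libraries measured 0.897 and 1.52 FPKM at 0 h, 1.86 and 2.32 FPKM at 36 h, and 7.60 and 4.05 FPKM at 96 h. HMGN1-OE libraries measured 1.33 and 0.937 FPKM, then 1.58 and 1.15 FPKM, then 5.07 and 5.83 FPKM. The libraries at 96 h again did not overlap with earlier ones. The log2 rise from 0 to 96 h was 1.59 ± 0.38 (adjusted p = 8.28e-05) in wild-type cells and 1.60 ± 0.38 (adjusted p = 1.54e-04) in HMGN1-OE cells. Ratios of mean FPKM were 4.82-fold and 4.80-fold for Tnfaip3 and 4.78-fold and 4.77-fold for Nfkbia, of which the wild-type ratio of Nfkbia averages 88.5 and 29.6 FPKM at 96 h.

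The change was placed late in the course. From 0 to 36 h, 0 of the 10 genes were called in wild-type cells, where limma called 0.617% of all genes, and 0 in HMGN1-OE cells, where it called 1.80%. At an unadjusted p under 0.05, for which no share of all genes was counted, there was 1 gene in wild-type cells, Ccl6, and 0 in HMGN1-OE cells. Ccl6 was called in wild-type cells from 0 to 36 h without the second library at 36 h (3.05, adjusted p = 2.14e-03) and was at -0.93 without the first. From 36 to 96 h, 6 of the 10 genes rose in wild-type cells, against 3.15% of all genes, and 7 rose in HMGN1-OE cells, against 4.02%. The wild-type exception was Tnf, with a log2 difference of 0.81 ± 0.45 (adjusted p = 0.0808). The log2 rise from 36 to 96 h was 4.50 ± 0.48 for Il1r2 in HMGN1-OE cells (adjusted p = 2.69e-18) and 4.09 ± 0.53 for Ccl6 in wild-type cells (adjusted p = 2.80e-13). That of Ccl6 was 2.10 (adjusted p = 5.35e-03) without the second wild-type library at 36 h and 6.08 (adjusted p = 3.97e-16) without the first. Wild-type calls from 36 to 96 h rested in part on single libraries. Il1b and Nfkbia were not called without the second library at 36 h (adjusted p = 0.133 and 0.0657), and Nfkbia and Tnfaip3 were not called without the first library at 96 h (adjusted p = 0.308 and 0.112). Tnf was called without either library at 0 h, the first at 36 h, or the second at 96 h (adjusted p from 0.0144 to 0.0491). Ccl4 was called lower without either library at 0 h or the second at 36 h (adjusted p from 0.0128 to 0.0393).

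**Figure D2:**
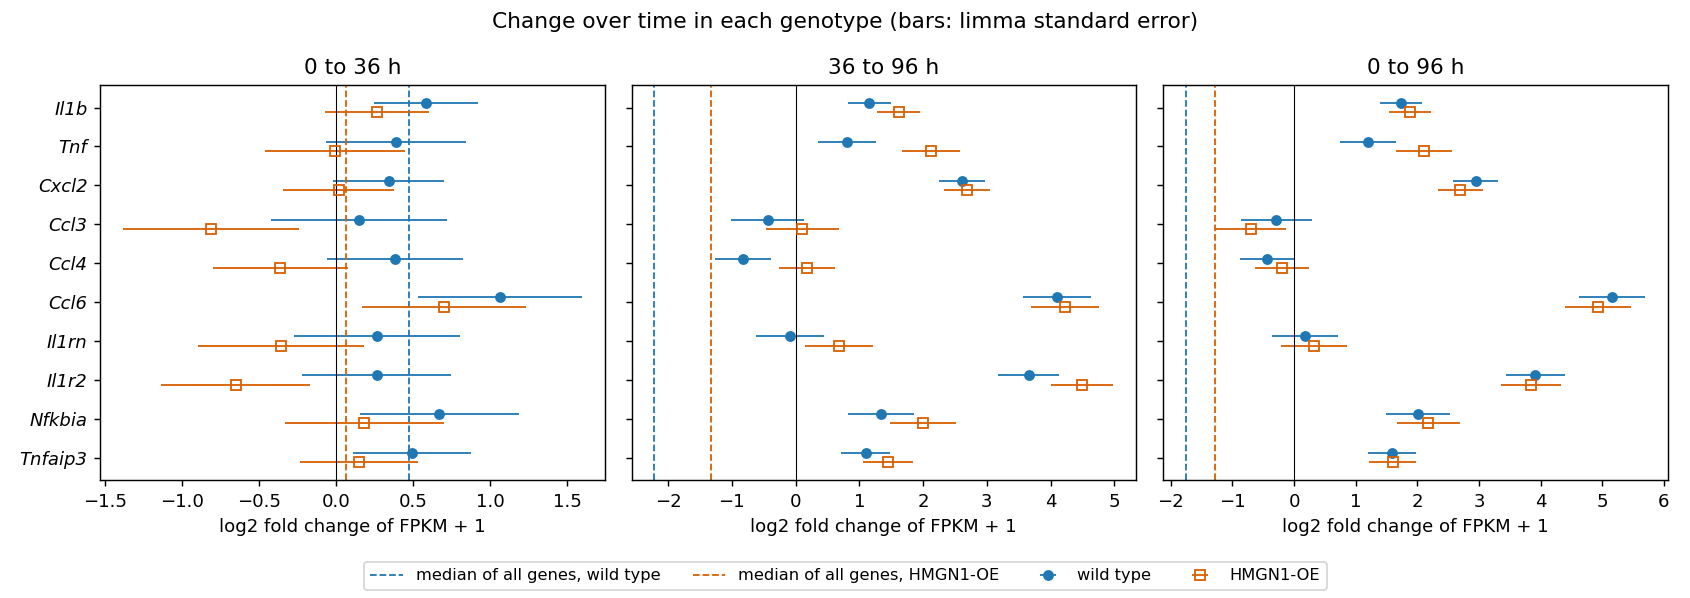
Log2 fold change of FPKM + 1 for each of the 10 genes from 0 to 36 h, 36 to 96 h, and 0 to 96 h, with the limma standard error as bars, in wild-type (filled circles) and HMGN1-OE cells (open squares). Dashed lines are the median of all tested genes in each genotype. From 36 to 96 h and from 0 to 96 h all 10 genes lie to the right of both medians, and Ccl3, Ccl4, and Il1rn lie between -0.82 and 0.68.

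These changes are on the spike-in scale, which refers to a fixed number of cells, and most genes fell on it. With each library centred on its own median, which asks how a gene moved relative to the others, all 10 genes rose from 0 to 96 h in wild-type cells, where 36.5% of all genes did. In HMGN1-OE cells 8 of the 10 rose, where 30.9% of all genes did. From 36 to 96 h all 10 rose on this centred scale in each genotype, as did 38.2% of all genes in wild-type cells and 28.6% in HMGN1-OE cells. The 3 genes without a call on the spike-in scale then gave log2 values of 1.56 (Ccl3, adjusted p = 0.0166), 1.41 (Ccl4, adjusted p = 0.0278), and 2.03 (Il1rn, adjusted p = 2.77e-04) in wild-type cells. In HMGN1-OE cells they gave 0.61 (adjusted p = 0.291), 1.12 (adjusted p = 0.0705), and 1.64 (adjusted p = 1.22e-03).

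The second question was whether HMGN1 overexpression altered the 10 genes. At 0 h, 0 of the 10 were called between genotypes, against 1.36% of all genes, and 0 had an unadjusted p under 0.05. Of the 10 log2 differences (HMGN1-OE minus wild type), 9 were negative, as were 77.6% of those of all genes. After centring 5 of the 10 were negative, against 46.9% of all genes. Il1b was lower in both HMGN1-OE than in both wild-type libraries by the values given above, with a difference of -0.09 ± 0.34. Il1b belongs to a myeloid development gene list whose leading genes the study marked on these samples, so its direction at 0 h is not independent evidence. Il1r2 was the single gene with a positive difference, 0.46 ± 0.48, and its libraries did not overlap. Non-overlap was seen in 2 of the 10 genes and in 7.93% of all genes.

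At 36 h, all 10 differences were negative, and 7 of the 10 genes were lower in both HMGN1-OE libraries than in both wild-type libraries. A negative difference was found for 95.9% of all tested genes and lower libraries without overlap for 84.4%, and the median gene differed by -0.54. After centring 6 of the 10 differences were negative, against 36.9% of all genes, and 2 of the 10 genes had libraries without overlap, against 35.5%. None of the 10 passed the test, against 1.26% of all genes, and 2 had an unadjusted p under 0.05. The share of all genes at that unadjusted threshold was not counted. Ccl4 had the largest difference, -1.43 ± 0.44 (adjusted p = 0.0787), from 2.88 and 3.18 FPKM in HMGN1-OE libraries and 15.6 and 6.13 FPKM in wild-type libraries. Ccl6 followed, with -1.16 ± 0.53 (adjusted p = 0.496), and Ccl3 with -0.96 ± 0.57 (adjusted p = 0.496). The Ccl3 difference was -0.27 without the first wild-type library at 36 h and -1.66 without the second. The Ccl6 difference changed sign with the wild-type library used. It was -3.15 (adjusted p = 1.16e-03) without the second wild-type library at 36 h and 0.83 (adjusted p = 0.538) without the first. Ccl4 was also called without the second (-2.04, adjusted p = 0.0137) and was -0.82 (adjusted p = 0.538) without the first. With the groups at 36 h left whole, it was called when any 1 of the 4 wild-type libraries at 0 and 96 h was left out (adjusted p from 0.0240 to 0.0437).

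At 96 h, 0 of the 10 genes were called, against 0.669% of all genes, and 0 had an unadjusted p under 0.05. Here 7 of 10 differences were negative, while 88.7% of all genes had positive ones and the median gene differed by 0.36. Ccl6 had the lowest difference of the 10, -1.03 ± 0.53 (adjusted p = 0.859), with 132 and 288 FPKM in HMGN1-OE against 397 and 402 FPKM in wild-type libraries. It was -0.47 without the first HMGN1-OE library at 96 h and -1.59 without the second. The 7 listed eosinophil markers summed to 256.4 and 548.7 FPKM in the same HMGN1-OE libraries and to 1074 and 2313 FPKM in the wild-type libraries, and their part in the Ccl6 difference was not tested. Prg2 alone was at 186.2 and 471.7 FPKM and at 933.3 and 1970 FPKM in the same order. Prg3, Epx, Ear1, and Ear2 were also higher in both wild-type libraries, whereas Ccr3 and Il5ra did not exceed 0.288 and 0.451 FPKM in any library. Tnf had the highest, 0.68 ± 0.45 (adjusted p = 0.859), with 19.2 and 16.9 FPKM against 15.9 and 7.33 FPKM, and it was 1.19 without the first wild-type library at 96 h and 0.17 without the second. In these 2 genes the libraries did not overlap, as was the case for 13.2% of all genes. The other 8 had overlapping libraries. After centring on library medians, 0 of the 10 were called at 96 h, against 0.0608% of all genes, and 9 of the 10 differences were negative, as were 55.7% of those of all genes. The centred libraries did not overlap in 7 of the 10 genes, against 44.3% of all genes.

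**Figure D3:**
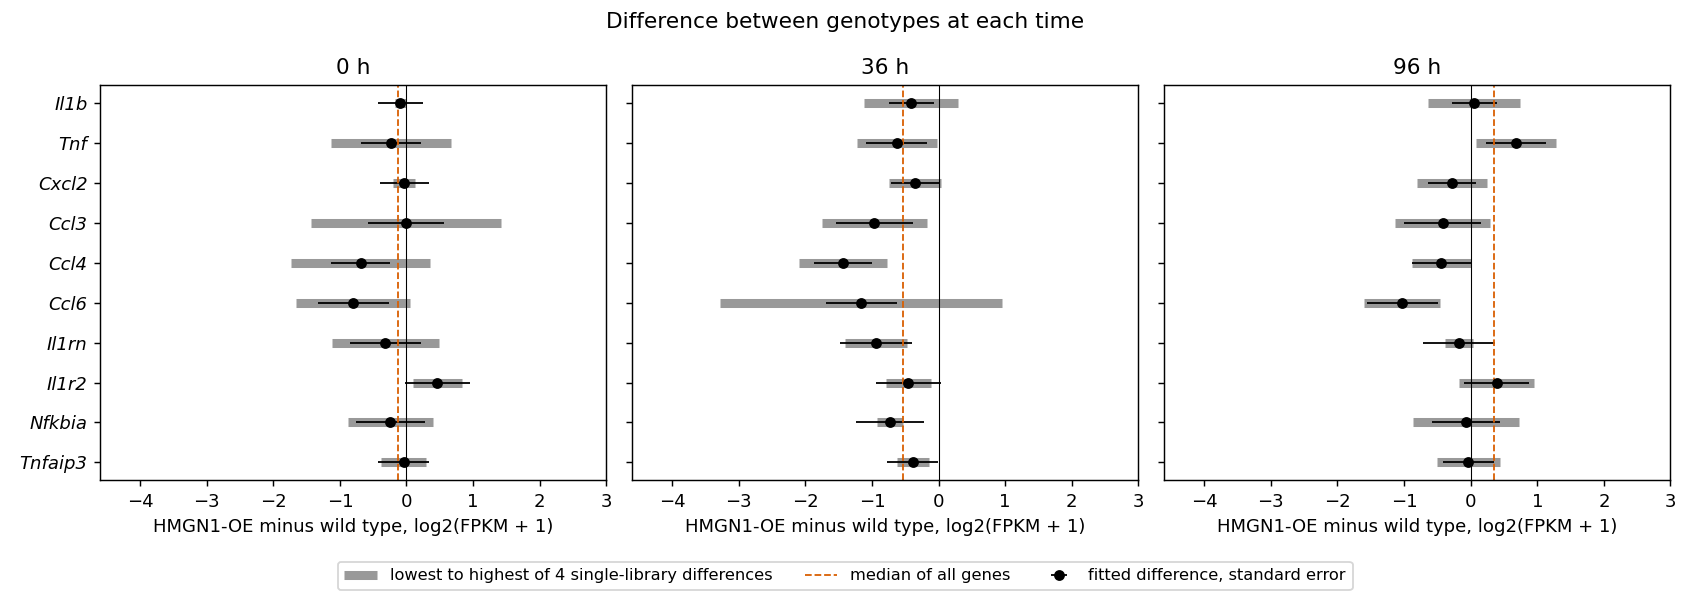
Difference between genotypes (HMGN1-OE minus wild type, log2(FPKM + 1)) for each of the 10 genes at 0, 36, and 96 h. Points and thin bars are the fitted difference and its standard error, grey bars span the 4 differences between single libraries, and the dashed line is the median of all tested genes. At 36 h all 10 points are below 0 and lie around the median of -0.54, and the grey bars of Il1b, Cxcl2, and Ccl6 span 0 there.

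The interaction of genotype with time asks whether the change over time itself differed. For none of the 10 genes was it called, from 0 to 36 h (0.504% of all genes called) or from 0 to 96 h (0.677%), and 0 of the 10 had an unadjusted p under 0.05 in either. The rise of the 7 genes was thus not shown to differ between genotypes at this number of libraries. The standard errors of the interactions, from 0.48 for Il1b to 0.81 for Ccl3, limit what could be seen.

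The receptors of these ligands were taken next. Il1r1, the signalling receptor of interleukin 1, measured 18.5 and 31.7 FPKM in HMGN1-OE libraries and 11.5 and 0.709 FPKM in wild-type libraries at 0 h. By 36 h it stood at 8.73 and 2.97 FPKM in HMGN1-OE libraries and 0.259 and 17.2 FPKM in wild-type libraries, and at 96 h at 0.832, 0.503, 1.43, and 0.398 FPKM in the same order. The 2 wild-type libraries with the lowest Il1r1 before 96 h were those with the highest Ly6c2. The log2 difference between genotypes at 0 h was 2.45 ± 0.42 (adjusted p = 7.29e-07), but 1.01 (adjusted p = 0.901) without the second wild-type library. It was 2.58 (adjusted p = 0.930) after centring, and with the gene's own variance its adjusted p was 1. Il1r1 fell from 0 to 96 h in HMGN1-OE cells by 3.93 on the log2 scale (adjusted p = 3.14e-19), and after centring the value was -2.62 (adjusted p = 0.108). In wild-type cells the change was -1.33 ± 0.42 (adjusted p = 2.27e-03), and 0.11 (adjusted p = 0.855) without the first library at 0 h and -0.93 (adjusted p = 0.119) without the second at 96 h. Centring turned its direction (0.52, adjusted p = 0.735), quantile normalization gave -0.31 (adjusted p = 0.816), and with the gene's own variance the adjusted p was 0.430. The interaction of genotype with time from 0 to 96 h was called for Il1r1 (-2.60, adjusted p = 2.00e-03) but not without the second wild-type library at 0 h (-1.16, adjusted p = 1), without the second HMGN1-OE library at 0 or 96 h or the first wild-type library at 96 h (adjusted p from 0.0732 to 0.119), or after centring (-3.13, adjusted p = 0.522). Quantile normalization, no filter on low values, a minimum mean of 5 FPKM, no trend, a robust trend, and the gene's own variance also left it uncalled (adjusted p from 0.1075 to 0.822).

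The ratio of decoy to signalling receptor, Il1r2 to Il1r1 FPKM, was chosen after its values were seen. It lay between 0.117 and 0.733 in the 4 HMGN1-OE libraries before 96 h. In wild-type libraries it was 0.294 and 4.27 at 0 h and 17.3 and 0.211 at 36 h. All 4 libraries at 96 h had ratios between 62.5 and 169.8. The ratio of Il1rn to Il1b FPKM, chosen likewise, was 53.3 to 226 in HMGN1-OE libraries and 24.7 to 309 in wild-type libraries before 96 h. Il1b was at 0.138 to 0.286 FPKM at 0 h, near the 0.1 FPKM of undetected genes, so the size of the ratios there is uncertain. At 96 h it was 8.47 to 17.2 in all 4 libraries, where antagonist transcripts still exceeded those of the cytokine.

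Ccr1, a receptor for CCL3 and CCL6, rose in both genotypes. It was at 0.563 to 1.96 FPKM in the 4 libraries at 0 h and at 26.5 to 40.7 FPKM in the 4 at 96 h, with log2 changes of 3.96 ± 0.44 in wild-type (adjusted p = 1.70e-17) and 4.11 ± 0.44 in HMGN1-OE cells (adjusted p = 9.17e-19). Cxcr2, the receptor for CXCL2, was at 17.5 and 8.32 FPKM in wild-type libraries and 5.96 and 5.68 FPKM in HMGN1-OE libraries at 96 h. Its log2 rise from 0 to 96 h was 2.76 ± 0.39 (adjusted p = 2.18e-11) and 2.13 ± 0.39 (adjusted p = 4.85e-07).

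**Figure D4:**
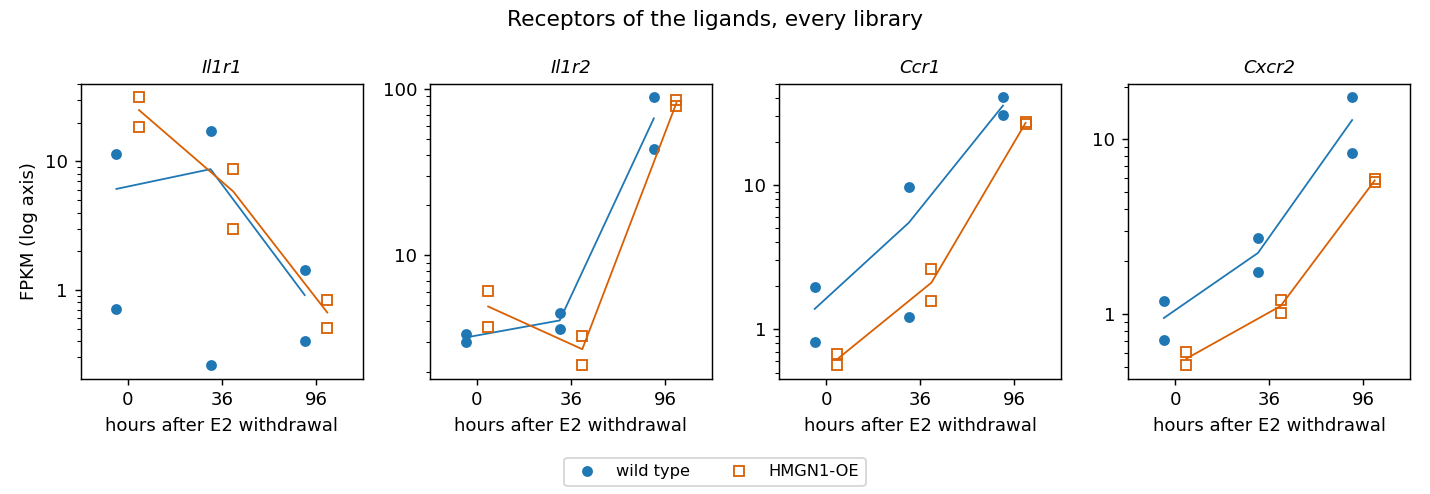
FPKM (log axis) of the receptors Il1r1, Il1r2, Ccr1, and Cxcr2 in each of the 12 libraries against hours after E2 withdrawal, with filled circles for wild-type and open squares for HMGN1-OE libraries and lines through the means of 2 libraries. The 3 times are evenly spaced. Ccr1, Cxcr2, and Il1r2 are highest at 96 h, and the wild-type libraries of Il1r1 at 0 and 36 h lie far apart.

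The wider pathway lists, most of which hold some of the 10 genes, were counted on both scales, against all tested genes, of which 4.31% rose and 77.2% fell in wild-type cells and 5.08% rose and 62.4% fell in HMGN1-OE cells. After centring, 36.5% rose and 33.8% fell in wild-type cells and 30.9% rose and 32.5% fell in HMGN1-OE cells. Of 24 tested genes of the interleukin 1 pathway, members included, 6 rose and 10 fell from 0 to 96 h in wild-type cells and 6 rose and 7 fell in HMGN1-OE cells. After centring the balance turned, with 18 higher and 1 lower in wild-type cells and 15 and 2 in HMGN1-OE cells. Sigirr, an inhibitory receptor of the family, fell, with log2 changes of -4.02 and -3.40 (adjusted p = 6.12e-13 and 2.46e-09). Of 13 genes of the TNF pathway, 2 rose in each genotype, Tnf and the related ligand Ltb, and 8 fell in wild-type cells and 5 in HMGN1-OE cells, against 6 higher and 1 lower and 7 and 1 after centring. The log2 rise of Ltb was 2.69 (adjusted p = 5.26e-11) and 3.06 (adjusted p = 1.01e-13). Adam17, the protease that sheds TNF, fell, with log2 changes of -2.44 and -2.40 (adjusted p = 1.53e-05 and 4.43e-05).

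Of 11 tested chemokine ligands, 4 rose in wild-type cells and 3 in HMGN1-OE cells from 0 to 96 h, and 3 fell in each. After centring 8 were higher and 1 was lower in wild-type cells, and 4 and 2 in HMGN1-OE cells. Cxcl10, an interferon-induced ligand of CXCR3, rose by 1.65 (adjusted p = 6.94e-05) and 2.94 (adjusted p = 3.04e-12). Ccl9 was at 477 to 1346 FPKM at 0 h and 17.1 to 56.2 FPKM at 96 h over both genotypes, and fell, with log2 changes of -4.36 and -4.59 (adjusted p = 5.17e-12 and 4.62e-13). Pf4, a platelet chemokine, fell, with log2 changes of -3.07 and -3.35 (adjusted p = 5.18e-11 and 1.01e-12), of which the first was not called after centring (-1.23, adjusted p = 0.0670). Between genotypes, 1 of the 11 ligands was called at 36 h, against 1.26% of all genes. It was Ccl27a, higher in HMGN1-OE cells by 2.01 (adjusted p = 3.50e-06), with an adjusted p of 0.501 on its own variance and 0.101 after centring. At 96 h 1 of the 11 was called, against 0.669% of all genes. It was Ccl2, lower in HMGN1-OE cells (-1.58, adjusted p = 7.48e-04). The Ccl2 difference was -0.35 without the second wild-type library at 96 h and -2.80 without the first. Its adjusted p was 0.805 on its own variance, 0.274 after centring, and 0.180 with quantile normalization.

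Of 14 genes for NF-kB subunits, kinases, and inhibitors, 3 rose and 6 fell in wild-type cells and 3 rose and 4 fell in HMGN1-OE cells from 0 to 96 h. After centring 10 were higher and 2 lower in each genotype. Nfkbib, which encodes IkB-beta, fell, with log2 changes of -2.15 and -1.74 (adjusted p = 5.49e-05 and 1.68e-03), opposite to Nfkbia. Nfkb1, the gene of p105 and p50, fell, with log2 changes of -2.18 and -1.61 (adjusted p = 1.41e-04 and 6.83e-03). Of 28 feedback inhibitors of inflammatory signalling, 7 rose in each genotype, and 11 fell in wild-type cells and 9 in HMGN1-OE cells. After centring 23 were higher and 3 lower in wild-type cells, and 18 and 3 in HMGN1-OE cells. Klf2, a transcription factor that restrains myeloid activation, had log2 rises of 2.17 (adjusted p = 7.80e-06) and 3.13 (adjusted p = 2.84e-10). Dusp2, a phosphatase of MAP kinases, fell, with log2 changes of -3.67 and -2.40 (adjusted p = 1.40e-11 and 1.73e-05). Of 8 tested receptors of these ligands, 3 rose in each genotype, and 2 fell in wild-type cells and 1 in HMGN1-OE cells, against 6 higher and 0 lower in each after centring. Of 14 other cytokines and growth factors, 6 rose in each genotype, and 4 fell in wild-type cells and 3 in HMGN1-OE cells, against 11 higher in each and 0 and 1 lower after centring. The median log2 change of the 10 genes, 1.67 in wild-type cells and 2.001 in HMGN1-OE cells, compares with -0.74 and -0.35 for these 28, of which Nfkbia, Tnfaip3, Il1rn, and Il1r2 are also among the 10, and with -1.75 and -1.28 for all tested genes.

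The genes whose course was most like that of Il1b, Ccl3, and Nfkbia were named by Pearson correlation of log2 values over the 12 libraries after centring each library. For Il1b they were Egr3, Nlrp12, Cd226, G6pd2, and Map3k15, with r from 0.992 to 0.995. For Nfkbia they were Gsdmd, Tbc1d10b, Slc4a2, Sh3bgrl3, and Slc35d2, with r of 0.997. On this centred scale 21.0% and 21.1% of all genes had r above 0.9 with Il1b and Nfkbia. On the deposited scale, where Nfkbia rose, Gsdmd was at 21.8 to 51.0 FPKM before 96 h and at 18.5 to 40.6 FPKM at 96 h. Ccl3 was followed by Yipf4, Furin, Clk4, 0610031J06Rik, and Cd300lb, with r from 0.926 to 0.959, and 26 genes (0.226%) had r above 0.9 with it. The 12 points share their groups and 1 normalization, so no p is given.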

How the data were processed

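Polyadenylated RNA was sequenced from both genotypes 0, 36, and 96 h after E2 withdrawal. The deposited values are FPKM; the authors lysed equal cell numbers, added ERCC RNAs, prepared libraries that do not mark strand, and normalized the matrix by loess on the ERCC RNAs. The study's methods name Bowtie, whereas the submitters' processing notes list HISAT, Cufflinks 2.0.0, and mm9, with no roles given. Il1b overlaps an antisense gene, whose reads unstranded libraries cannot separate.

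The 92 ERCC rows were left out. Genes that reached 1 FPKM in 2 or more libraries were tested on log2(FPKM + 1) with limma 3.58.1 in R 4.3.3 (6 group means, eBayes with trend, two-sided, Benjamini-Hochberg over 11516 genes), with calls at an adjusted p-value under 0.05. Prior degrees of freedom were infinite, so a gene's own spread did not enter its p-value. An exact permutation test of 2 against 2 libraries cannot go below 0.333. Scripts were tested on simulated data. Motifs and figures used Python 3.11.15 and matplotlib 3.10.9.

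All 10 genes were named in every comparison. Of each pathway list, other genes were named only from the 4 called with the largest change in the comparison, besides Ccr1, Cxcr2, and Il1r1, and the 5 genes most like Il1b, Ccl3, and Nfkbia. The marker genes and the gene Hmgn1 were named after their values were seen. Some items are not reported here. The genes and lists were chosen with earlier results of these data known. Alternatives were other pseudocounts (0.1 and 0.01), filters, scalings, and variance models, and each library left out in turn. Leaving out the second wild-type library at 0 h and the first at 36 h together was chosen after seeing the data.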

Additional observations from a re-analysis of the deposited data

Results flagged for a closer look

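On the deposited scale Il1r2 had a log2 difference between 0 and 36 h of 0.26 in wild-type cells and -0.65 in HMGN1-OE cells, and its libraries at these times did not overlap in either. Neither was called. The HMGN1-OE value was -0.35 without the first HMGN1-OE library at 0 h and -0.95 without the second. The wild-type value was 0.14 without the first wild-type library at 36 h. Libraries at 36 h were all higher in 25.7% of all genes in wild-type cells and all lower in 9.47% in HMGN1-OE cells. After centring on library medians both differences were negative, -0.22 and -0.68. The genotype difference of Il1r2 was 0.46 at 0 h and -0.45 at 36 h, and 0.60 and 0.13 after centring. At 0 h it was 0.16 without the first HMGN1-OE library and 0.76 without the second. At 36 h it was -0.66 without the first HMGN1-OE library and -0.24 without the second. The interaction was -0.92 (adjusted p = 0.873, limma). The genotype difference of Tnf was -0.63 at 36 h and 0.68 at 96 h, without overlap of the libraries at either time, and the difference between these 2 times was not tested. The Tnf value at 36 h was -0.24 without the first wild-type library at that time and -1.02 without the second. Libraries did not overlap and were lower at 36 h in 84.4% of all genes and higher at 96 h in 10.2%, and after centring the values of Tnf were -0.05 and 0.28. Neither gene was called between genotypes at any time.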

How the results depend on the processing

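No paired analysis was possible because the digits in the table's column names do not match the replicate numbers of the sample titles. Depth is unknown, and the precision rests on 2 libraries a group. Of the 27 calls over 91 gene and comparison pairs, 0 changed sign under any alternative. Tnf from 0 to 96 h and Nfkbia from 36 to 96 h in wild-type cells were lost without the filter on low values, without moderation, and with only the groups compared. Nfkbia from 0 to 96 h in wild-type cells was lost in the last of these, and Il1rn from 36 to 96 h in HMGN1-OE cells was gained in it (0.68, adjusted p = 0.0118). A mean of at least 5 FPKM, which left Il1b, Cxcl2, and Tnfaip3 untested, gave 4 calls from 0 to 96 h in each genotype, and 3 in wild-type cells and 4 in HMGN1-OE cells from 36 to 96 h.

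Centring and quantile normalization each gave 10 calls from 36 to 96 h in wild-type cells. By construction both remove the general fall. The log2 signs that turned under centring, from 36 to 96 h in wild-type cells, were those of Ccl3 (1.89), Ccl4 (1.502), and Il1rn (2.24). From 0 to 96 h they were Ccl3 (1.56) and Ccl4 (1.41) in wild-type cells and Ccl3 (0.61) and Ccl4 (1.12) in HMGN1-OE cells. From 0 to 36 h they were Tnf (-0.09), Cxcl2 (-0.14), Ccl3 (-0.33), Ccl4 (-0.10), Il1rn (-0.21), and Il1r2 (-0.22) in wild-type cells and Cxcl2 (-0.014) in HMGN1-OE cells. Between genotypes they were Il1b (0.038), Cxcl2 (0.10), Ccl3 (0.13), and Tnfaip3 (0.090) at 0 h, Il1b (0.17), Cxcl2 (0.22), Il1r2 (0.13), and Tnfaip3 (0.19) at 36 h, and Il1b (-0.35) and Il1r2 (-0.012) at 96 h. Under quantile normalization the signs turned from 36 to 96 h in wild-type cells for Ccl3 (2.15), Ccl4 (1.40), and Il1rn (2.502). From 0 to 96 h they turned for Ccl3 (1.78) and Ccl4 (1.39) in wild-type cells and Ccl3 (0.79) and Ccl4 (0.98) in HMGN1-OE cells. From 0 to 36 h they turned for Ccl3 (-0.37), Ccl4 (-0.0074), Il1rn (-0.23), and Il1r2 (-0.11) in wild-type cells and Tnf (0.0017) and Cxcl2 (-0.0205) in HMGN1-OE cells. Between genotypes they turned for Ccl3 (0.12) and Tnfaip3 (0.0369) at 0 h and Il1b (-0.35) and Il1r2 (-0.090) at 96 h.

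With each library left out in turn, where the lone library of its group is assumed to vary like the other groups, calls ranged from 0 to 2 between genotypes at 36 h and from 0 to 1 from 0 to 36 h in wild-type cells. The log2 values whose sign turned ranged, between genotypes at 0 h, from -0.87 to 0.40 (Tnf), -0.15 to 0.086 (Cxcl2), -0.81 to 0.80 (Ccl3), -1.47 to 0.091 (Ccl4), -1.10 to 0.47 (Il1rn), -0.58 to 0.10 (Nfkbia), and -0.25 to 0.16 (Tnfaip3). At 36 h they ranged from -0.96 to 0.14 (Il1b) and -3.15 to 0.83 (Ccl6). At 96 h they ranged from -0.35 to 0.45 (Il1b), -0.69 to 0.12 (Cxcl2), -0.88 to 0.039 (Ccl3), -0.38 to 0.026 (Il1rn), -0.12 to 0.90 (Il1r2), -0.84 to 0.71 (Nfkbia), and -0.42 to 0.35 (Tnfaip3). From 0 to 36 h they ranged from -0.25 to 1.02 (Tnf), -0.65 to 0.95 (Ccl3), -0.40 to 1.16 (Ccl4), -0.93 to 3.05 (Ccl6), and -0.52 to 1.05 (Il1rn) in wild-type cells and from -0.28 to 0.26 (Tnf), -0.10 to 0.13 (Cxcl2), and -0.12 to 0.49 (Nfkbia) in HMGN1-OE cells. From 36 to 96 h they ranged from -1.13 to 0.26 (Ccl3) and -0.29 to 0.12 (Il1rn) in wild-type cells and from -0.15 to 0.36 (Ccl3) and -0.25 to 0.60 (Ccl4) in HMGN1-OE cells. From 0 to 96 h they ranged from -1.09 to 0.52 (Ccl3), -1.22 to 0.34 (Ccl4), and -0.61 to 0.97 (Il1rn) in wild-type cells and from -0.61 to 0.23 (Ccl4) in HMGN1-OE cells. Calls from 36 to 96 h in wild-type cells ranged from 4 to 8.

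Without the second wild-type library at 0 h and the first at 36 h together, all 27 calls were kept. The signs turned, between genotypes at 0 h, for Tnf (0.40), Cxcl2 (0.017), Ccl3 (0.80), Ccl4 (0.091), Il1rn (0.47), Nfkbia (0.10), and Tnfaip3 (0.16) and, at 36 h, for Il1b (0.14) and Ccl6 (0.83). In wild-type cells they turned for Il1b (-0.0016) and Ccl6 (-0.26) from 0 to 36 h, Ccl3 (0.26) from 36 to 96 h, and Ccl3 (0.52) and Ccl4 (0.34) from 0 to 96 h. The cause of these turns was not tested.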
